A study of Danio rerio with 8 samples.

Results

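The crystallins are the soluble proteins that fill the fibre cells of the eye lens, and with a few membrane proteins they give the lens its transparency and refractive power. The genes described here were all those of the expression table whose symbol starts with crya, cryb, cryg or lim2, together with grifin, mipa and mipb. The rule gave 50 genes of the 20409 in the table, and 50 of them passed the filter on low values that kept 20154 genes for testing. They comprised 1 alpha crystallin gene, 12 beta, 25 gamma M and 2 other gamma (gamma N) crystallin genes, 6 lens membrane genes and grifin. The other 3 were the crybg genes crybg1a, crybg1b and crybg3, while crybgx was counted among the 12 beta genes. RefSeq (assembly GRCz12tu) lists 69 symbols under the same rule, and the ones without a row in the table were not analysed here.

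Whole zebrafish larvae were sequenced at 4 days post fertilization, with 30 larvae pooled per library and no treatment. The mutants were homozygous for smh, a mutation of ccdc103, which motile cilia need for their dynein arms. They were picked by their downward curled tail, so genotype was read from phenotype. Controls were their siblings, wild-type and heterozygous larvae mixed in one pool. Each of 4 clutches gave 1 mutant and 1 control library, which made 4 against 4 and 8 libraries in all. Values were taken as log2 CPM, a base 2 logarithm of normalised read counts, from the scale of the deposited values. Sorted from low to high, the values of the 8 libraries agreed within 0.01 log2 units at 73.1% of ranks, with a median range of 0.0045, which is how quantile-normalised values look, although no source used here names that step. Sums, percentages and ratios of CPM below are therefore of normalised values and not of read totals. A CPM is not divided by transcript length, so levels are compared below between libraries and not between genes. ccdc103 itself was read at 0.64, 1.00, 0.67 and 0.40 log2 CPM in the controls of clutches 1 to 4 and 0.55, 0.33, 0.33 and 1.00 in the mutants, so its level does not separate the labels. The sequencing depth is unknown. In pooled whole larvae, fewer lens fibre cells and less RNA per fibre cell cannot be told apart.

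As background, alpha crystallin is a small heat shock protein that keeps other lens proteins soluble. Beta and gamma crystallins share one fold. Beta crystallins assemble into oligomers and gamma crystallins stay monomeric. The gamma M crystallins of fish are rich in methionine and pack into the dense, hard lens of aquatic animals. Fibre cells form throughout life from the epithelium at the front of the lens, and crystallin genes are switched on as they elongate.

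The lens was well represented in the libraries. The alpha, beta and gamma crystallins together took 1.00%, 0.626%, 0.920% and 0.843% of all CPM in the controls of clutches 1 to 4, and 0.893%, 0.910%, 0.949% and 0.929% in the mutants. The control of clutch 2 was the lowest of the 8 libraries and the control of clutch 1 the highest, while the mutants lay close together between them. Controls averaged 0.848% ± 0.161 and mutants 0.921% ± 0.0242 (SD, 4 libraries each), a difference smaller than the spread between control libraries.

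Mutants were compared with controls gene by gene with limma, without a clutch term, and 0 of the 50 lens genes differed at a Benjamini-Hochberg adjusted p under 0.05 (smallest adjusted p 0.677). Over all genes tested, 0.0744% were called (15 of 20154). At an unadjusted p under 0.05, 1 lens gene passed, against 3.41% of all genes. With clutch as a block, which compares clutch mates, 1 lens gene was called, grifin, which fell. That is 2% of the 50, against 2.34% of all genes, or 1.39% counting falls alone. At an unadjusted p under 0.05 the block gave 4 lens genes, grifin, cryba1l2, lim2.5 and mipb, each lower in mutants, against 13.5% of all genes. In the authors' deposited table the smallest adjusted p among the 50 was 0.786, for grifin.

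Differences between the means nevertheless had a pattern by class. Of the 25 gamma M genes 23 had a higher mean in mutants, with a median difference of 0.13 log2 units, and of the 12 beta genes 9 did, with a median of 0.11. All 6 lens membrane genes and grifin had a lower mean in mutants. The median over all tested genes was 0.00, with 51.1% above 0. Without clutch 2, 5 of the 25 gamma M and 6 of the 12 beta genes had a higher mean in mutants, with medians of -0.038 and -0.012 log2 units.

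**Figure D1:**
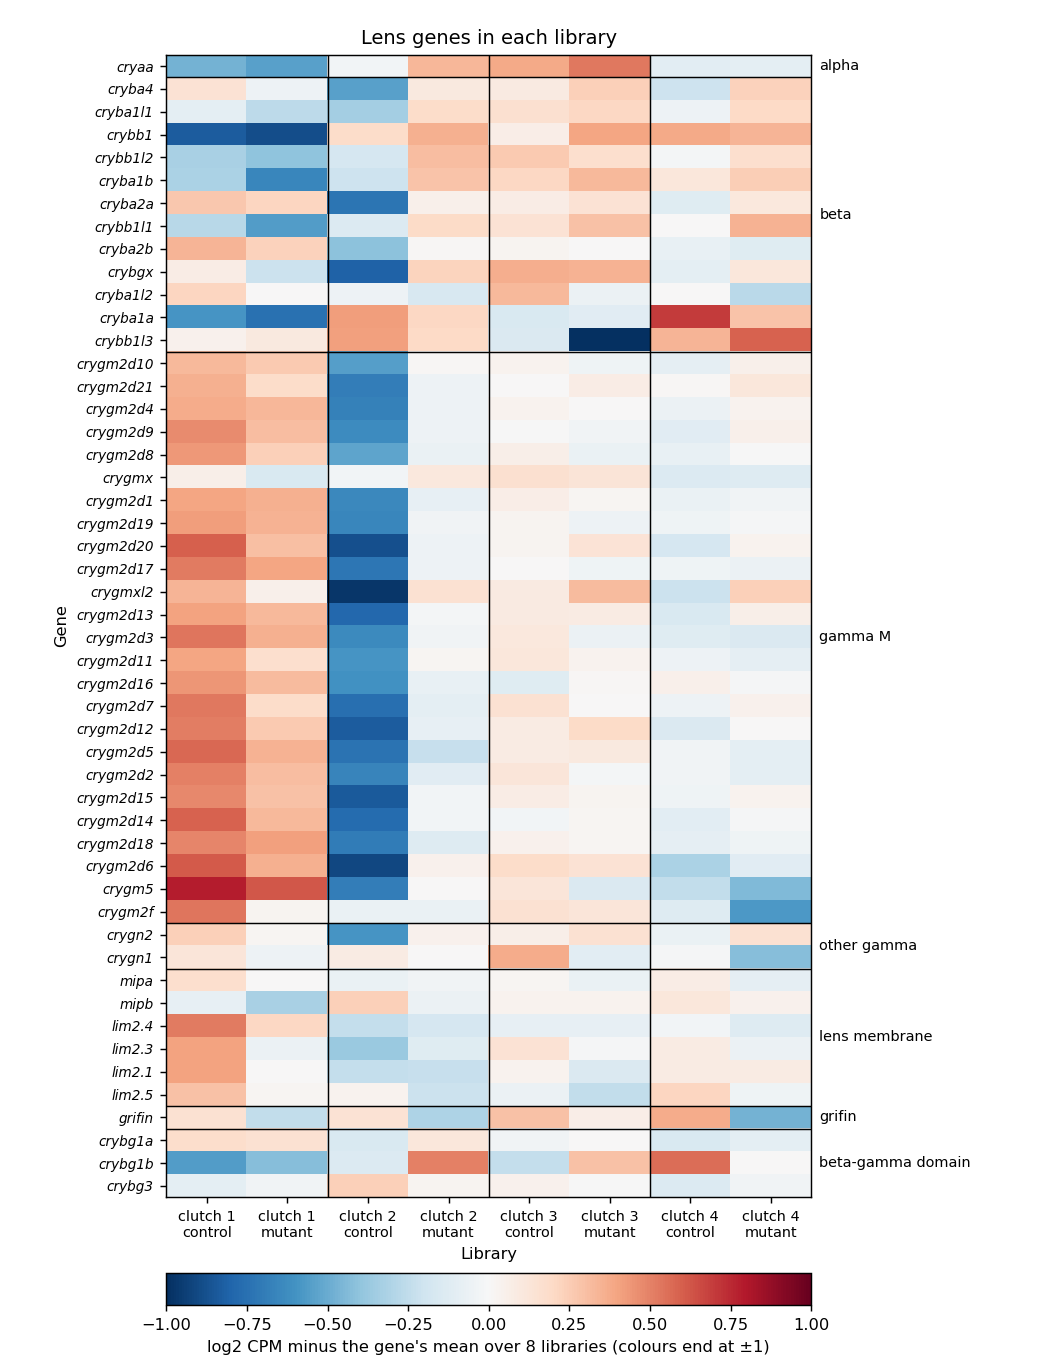
Heat map of the 50 genes (rows, grouped by class) in the 8 libraries (columns, clutch mates side by side). Colour gives log2 CPM minus the gene's own mean over the 8 libraries; crybb1l3 in the mutant of clutch 3 lies beyond the end of the scale. The control of clutch 2 is the blue column of the gamma M block, and clutch 1 is red for most gamma M genes and blue for crybb1.

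Gamma M crystallins form the largest class. In RefSeq, 23 of the 25 lie side by side on one chromosome, with 0 protein-coding genes of another family among them, and only crygmx and crygmxl2 lie elsewhere. Most carry numbered names of one subfamily (crygm2d1 to crygm2d21), and how reads were divided among such similar copies is uncertain. Their sum is less exposed to that division. The summed level of the class was 5975, 2843, 4610.5 and 4195 CPM in the controls of clutches 1 to 4 and 5342, 4337, 4555 and 4455 CPM in the mutants. The control of clutch 2 stood apart below all others, and both libraries of clutch 1 stood above. Between clutch mates the mutant had 0.894, 1.53, 0.988 and 1.06 times the level of its sibling in clutches 1 to 4.

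The 3 genes with the highest mean log2 CPM shared the extremes of the sum, with both libraries of clutch 1 highest and the control of clutch 2 lowest. For crygm2d10, the gamma M gene with the highest mean log2 CPM, values were 8.92, 8.04, 8.63 and 8.50 log2 CPM in the controls of clutches 1 to 4 and 8.85, 8.60, 8.55 and 8.64 log2 CPM in the mutants. The difference of 0.14 log2 units had a 95% confidence interval of -0.098 to 0.38 with clutch as a block, and its sign turned without the control of clutch 2 (-0.020). crygm2d21 had 8.71, 7.66, 8.36 and 8.36 log2 CPM in the controls of clutches 1 to 4 and 8.53, 8.30, 8.42 and 8.46 log2 CPM in the mutants. crygm2d4 had 8.59, 7.54, 8.24 and 8.16 log2 CPM in the controls of clutches 1 to 4 and 8.55, 8.17, 8.22 and 8.24 log2 CPM in the mutants. In all 3 the control of clutch 2 was the lowest library, and their mean differences turned below 0 without it.

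Across the class, the control of clutch 2 was the lowest of the 8 libraries for 23 of 25 genes, against 12.2% of all tested genes. Its mutant clutch mate was above it for 25 of 25. The mutant was above its sibling for 0, 7 and 17 gamma M genes in clutches 1, 3 and 4. Over all 50 lens genes the mutant was above its sibling for 3, 42, 19 and 30 in clutches 1 to 4, against 48.9%, 48.5%, 50.7% and 52% of all tested genes. In clutch 2 it was above by over 0.5 log2 units for 28 of 50, against 4.03%. The median difference of the gamma M class was -0.19, 0.61, -0.031 and 0.071 log2 units in clutches 1 to 4, and 97.6% of all tested genes had a smaller value in clutch 2 than the median of this class. Without the control of clutch 2, 2 of 25 genes had a higher mean in mutants and the median became -0.071. The 2 genes for which the control of clutch 2 was not the lowest library were crygmx and crygm2f. crygmx, outside the array, had 7.97, 7.89, 8.07 and 7.78 log2 CPM in the controls of clutches 1 to 4 and 7.76, 8.01, 8.04 and 7.78 log2 CPM in the mutants, so that its control of clutch 2 lay among the others. crygm2f, expressed at a low level, had 1.83, 1.23, 1.45 and 1.17 log2 CPM in the controls of clutches 1 to 4 and 1.33, 1.24, 1.42 and 0.72 log2 CPM in the mutants, with the lowest mean difference of the class (-0.25 log2 units).

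The largest mean difference of the class belonged to crygmxl2, also outside the array. It had 7.88, 6.57, 7.63 and 7.32 log2 CPM in the controls of clutches 1 to 4 and 7.59, 7.69, 7.86 and 7.78 log2 CPM in the mutants. Its control of clutch 2 lay 1.13 log2 units under its clutch mate, and the blocked 95% confidence interval of the mean difference ran from -0.45 to 1.20. The 2 libraries of clutch 4 differed by 0.45 and those of clutch 1 by -0.29, so the sign was not shared. No gamma M gene was higher in mutants in 4 of 4 clutches, against 11% of all tested genes.

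Gamma N crystallins, which combine features of the beta and gamma families, were represented by crygn2 and crygn1. crygn2 had 9.63, 8.80, 9.45 and 9.33 log2 CPM in the controls of clutches 1 to 4 and 9.41, 9.44, 9.54 and 9.54 log2 CPM in the mutants, again with the control of clutch 2 lowest. crygn1 was expressed at a low level, with 1.74, 1.71, 1.99 and 1.61 log2 CPM in the controls of clutches 1 to 4 and 1.57, 1.63, 1.52 and 1.20 log2 CPM in the mutants. It was lower in the mutant in 4 of 4 clutches, but the difference of -0.28 log2 units did not pass with the block (limma adjusted p = 0.44).

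**Figure D2:**
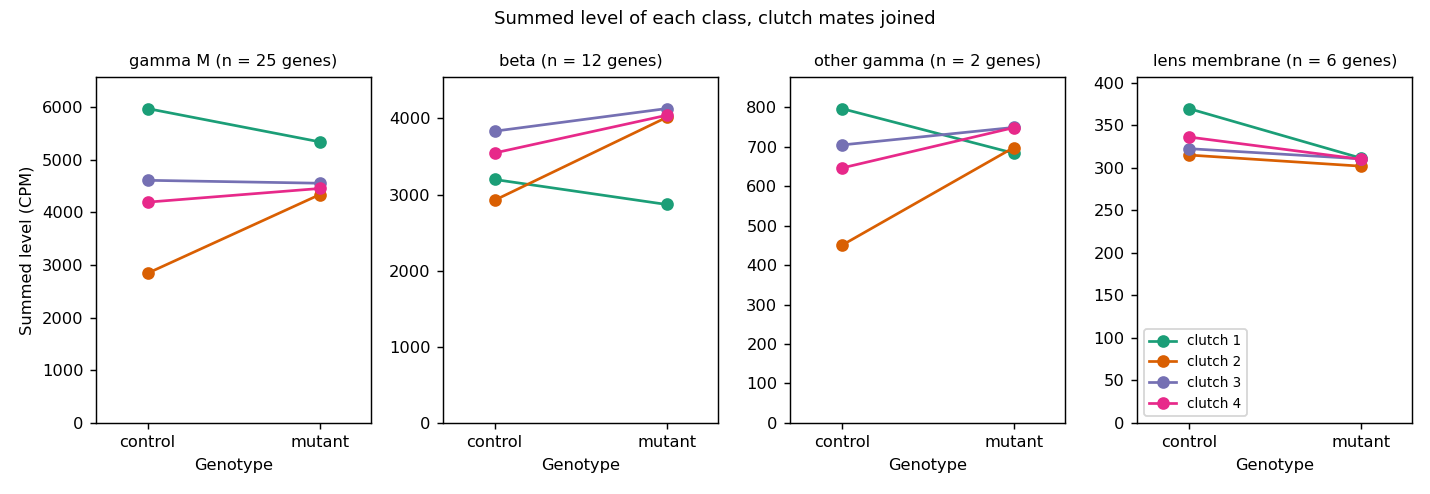
Summed level (CPM, linear axes from 0) of the gamma M, beta, other gamma and lens membrane classes in the control and mutant library of each clutch, joined by a line. The control of clutch 2 is the lowest gamma M library at 2843 CPM, and the 4 mutants lie between 4337 and 5342 CPM.

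The beta crystallins summed to 3198, 2926, 3833 and 3547 CPM in the controls of clutches 1 to 4 and to 2870, 4015, 4131 and 4042 CPM in the mutants. The ratios of mutant to sibling were 0.897, 1.37, 1.08 and 1.14. Here the mutant of clutch 1 and the control of clutch 2 were the lowest libraries, and the other mutants were the highest. The 2 genotypes overlapped.

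Among the beta genes 2 profiles recurred, with some genes showing parts of both. cryba4, an acidic subunit, had 9.48, 8.79, 9.42 and 9.12 log2 CPM in the controls of clutches 1 to 4 and 9.28, 9.43, 9.57 and 9.56 log2 CPM in the mutants. cryba2a, another acidic subunit, had 8.46, 7.45, 8.26 and 8.06 log2 CPM in the controls of clutches 1 to 4 and 8.40, 8.23, 8.33 and 8.29 log2 CPM in the mutants. Both had their lowest value in the control of clutch 2, as did cryba1l1, cryba2b and crybgx, which made 5 of 12. The mean differences of cryba4 and cryba2a, 0.26 log2 units each, were the largest of the class, with blocked 95% confidence intervals of -0.12 to 0.63 and -0.11 to 0.62. cryba1l1 had 9.14, 8.90, 9.39 and 9.18 log2 CPM in the controls of clutches 1 to 4 and 8.98, 9.42, 9.44 and 9.43 log2 CPM in the mutants, with the 3 mutants of clutches 2 to 4 above all controls and the mutant of clutch 1 below most of them.

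The other profile was that of crybb1, a basic subunit. crybb1 had 8.40, 9.41, 9.29 and 9.61 log2 CPM in the controls of clutches 1 to 4 and 8.34, 9.58, 9.62 and 9.57 log2 CPM in the mutants. Both libraries of clutch 1 were about 1 log2 unit under the other 6, and the control of clutch 2 was not low. The same order, both clutch 1 libraries below the other 6, was found for crybb1l1, crybb1l2, cryba1b and cryba1a. In crybb1l1, crybb1l2 and cryba1b, unlike crybb1 and cryba1a, the control of clutch 2 was the lowest of those other 6. It lay 0.33, 0.47 and 0.50 log2 units under its clutch mate, so these genes had both dips. In crybb1 the mutant minus control difference was 0.10 log2 units, with a blocked 95% confidence interval of -0.037 to 0.24. crybb1l3, close to the filter on low values, had 0.18, 0.54, -0.01 and 0.47 log2 CPM in the controls of clutches 1 to 4 and 0.23, 0.33, -1.39 and 0.72 log2 CPM in the mutants, and its mean difference of -0.32 rested on the mutant of clutch 3 (0.13 without it).

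One beta gene was lower in the mutant in each clutch. cryba1l2 had 4.16, 3.90, 4.27 and 3.95 log2 CPM in the controls of clutches 1 to 4 and 3.95, 3.79, 3.89 and 3.68 log2 CPM in the mutants. The difference of -0.24 log2 units had a blocked 95% confidence interval of -0.42 to -0.073, and the adjusted p was 0.158 (limma with clutch block). It was one of 5 lens genes lower in 4 of 4 clutches, with grifin, mipb, lim2.5 and crygn1, a share of 10% against 10.9% of all tested genes. Lens genes higher in 4 of 4 clutches numbered 0.

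The alpha crystallin gene cryaa encodes the lens chaperone. It had 4.32, 4.76, 5.17 and 4.69 log2 CPM in the controls of clutches 1 to 4 and 4.25, 5.12, 5.32 and 4.69 log2 CPM in the mutants. Clutch mates lay close together in clutches 1 and 4, the mutant was higher in clutches 2 and 3, and the group averages of 4.73 ± 0.35 (controls) and 4.85 ± 0.48 (mutants; SD, 4 libraries each) differed by less than that spread. The clutch levels differed more than the genotypes, with clutch 1 lowest.

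**Figure D3:**
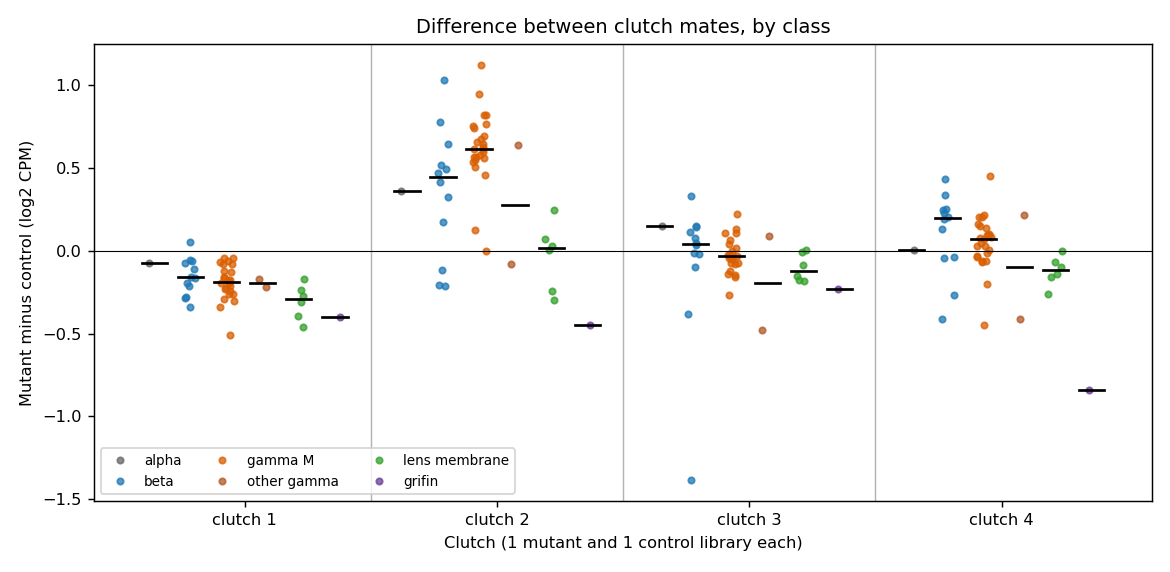
Mutant minus control (log2 CPM) in each clutch for every alpha, beta, gamma and membrane gene and grifin; points are genes, bars are class medians. Gamma M genes lie above 0 in clutch 2 (median 0.61) and below 0 in clutch 1 (median -0.19), while grifin lies below 0 in 4 of 4 clutches.

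grifin encodes a galectin-related protein of the lens fibres, and it was the one lens gene that separated the genotypes. It had 3.18, 3.17, 3.32 and 3.40 log2 CPM in the controls of clutches 1 to 4 and 2.78, 2.72, 3.09 and 2.56 log2 CPM in the mutants. Every mutant library lay below every control library, which holds for 2% of the lens genes and 2.92% of all tested genes. Controls averaged 3.27 ± 0.11 and mutants 2.79 ± 0.22 log2 CPM (SD, 4 libraries each), a 1.39-fold lower level in mutants. The fall of 0.48 log2 units (SE 0.11 with clutch as a block) passed the blocked test (limma adjusted p = 0.0269), but the same difference did not pass without the block (limma adjusted p = 0.677).

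The call of grifin depended on clutches 2 and 4 and on how variances were moderated. With the block, the adjusted p was 0.115 without clutch 2 and 0.25 without clutch 4, at differences of -0.49 and -0.36 log2 units, and it was 0.187 without trend and robust moderation (limma). grifin is also the 1 lens gene on the chromosome of ccdc103, with 147 tested genes between them in the RefSeq order. On that chromosome 5.74% of 1010 tested genes were called with the block, against 2.17% of 18412 elsewhere. The part of sequence linked to the mutation in this difference was not tested.

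The lens membrane genes encode the fibre cell water channel aquaporin 0 (mipa and mipb) and the fibre membrane proteins related to MP20 (the lim2 genes). Their summed level was 369.6, 315, 322 and 336 CPM in the controls of clutches 1 to 4 and 311, 302, 310.5 and 310.0 CPM in the mutants. All 4 mutant sums lay below all 4 control sums, with ratios to the sibling of 0.842, 0.958, 0.963 and 0.922. The direction of the sum was thus shared by the clutches, in contrast with the crystallin sums, but that of the single genes was not. The mutant was above its sibling for 0, 4, 1 and 1 of the 6 genes in clutches 1 to 4. In clutch 2 the median difference was 0.019 log2 units, while mipb was 0.30 lower. The genes differed little one by one, and 0 of 6 passed in either fit (limma; unadjusted p under 0.05 in 0 genes without clutch and in 2 with it). Over all tested genes those shares were 3.41% and 13.5%.

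mipa had 7.17, 6.93, 7.02 and 7.08 log2 CPM in the controls of clutches 1 to 4 and 7.00, 6.96, 6.93 and 6.91 log2 CPM in the mutants. Its mean difference was -0.096 log2 units, with a blocked 95% confidence interval of -0.22 to 0.029. mipb had 6.42, 6.74, 6.54 and 6.61 log2 CPM in the controls of clutches 1 to 4 and 6.18, 6.44, 6.53 and 6.55 log2 CPM in the mutants. Mutants were lower in 4 of 4 clutches, by 0.30 in clutch 2 and hardly in clutch 3. In mipa the control of clutch 2 lay among the other libraries, and in mipb it was the highest of the 8.

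Among the lim2 genes, lim2.5 had 3.44, 3.18, 3.09 and 3.36 log2 CPM in the controls of clutches 1 to 4 and 3.16, 2.93, 2.90 and 3.10 log2 CPM in the mutants. It was lower in mutants in 4 of 4 clutches, by 0.18 to 0.28 log2 units (blocked limma adjusted p = 0.253). lim2.4 had 6.48, 5.73, 5.88 and 5.94 log2 CPM in the controls of clutches 1 to 4 and 6.18, 5.80, 5.89 and 5.84 log2 CPM in the mutants, with the control of clutch 1 the highest library, and its mean difference of -0.082 turned to 0.077 without that library. For lim2.3 and lim2.1 the mean differences were -0.13 and -0.14 log2 units, largest in clutch 1 (-0.46 and -0.39). The control of clutch 2 was the lowest library for lim2.4, lim2.3 and lim2.1.

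**Figure D4:**
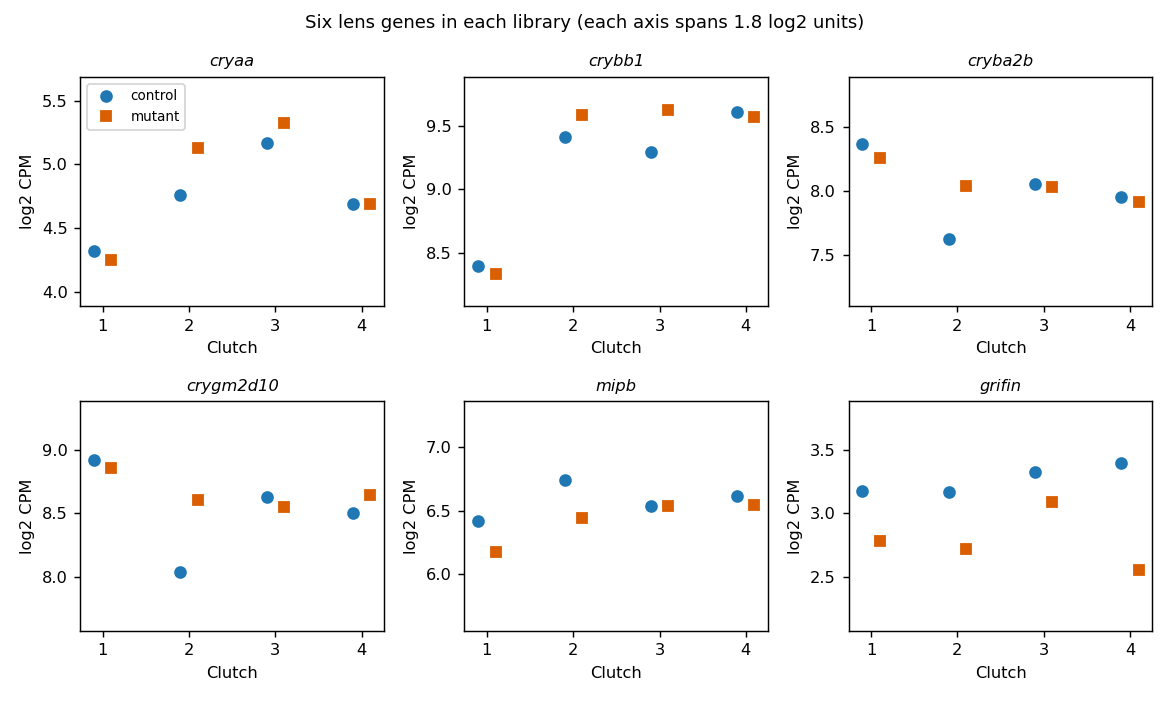
Log2 CPM of cryaa, crybb1, cryba2b, crygm2d10, mipb and grifin in the control (circle) and mutant (square) of each clutch; all panels span the same range of 1.8 log2 units. crybb1 is low in both libraries of clutch 1, cryba2b and crygm2d10 are low in the control of clutch 2, and grifin is lower in each mutant than in its sibling.

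The clutches were compared with each other in a model of clutch and genotype (limma F-test, adjusted over all genes), with both libraries of a clutch as its replicates. At an adjusted p under 0.05, 17 of 50 lens genes differed among the 4 clutches, a share of 34% against 38.6% of all tested genes. They were cryaa, 5 of 12 beta, 9 of 25 gamma M and 2 of 6 membrane genes. The share of lens genes was near that of all genes, as it was at an unadjusted p under 0.05 (27 of 50, against 49.4%). crybb1 (adjusted p = 2.79e-07) and cryaa (adjusted p = 3.79e-05) had the smallest values.

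The counts moved with the clutches included. Among clutches 1, 3 and 4 alone, 33 of 50 lens genes differed, 66% against 31.4% of all tested genes. They included 22 of 25 gamma M genes and 8 of 12 beta genes. The gamma M genes followed each other closely (median correlation 0.96), so they are not independent counts in this share. Among clutches 2, 3 and 4, 2 lens genes differed, 4% against 9.82%. Both libraries of clutch 1 lay above the other 6 for 22 of 25 gamma M genes (26 of 50 lens genes, against 23% of all tested genes) and below the other 6 for cryaa, 5 beta genes, mipb and crybg1b (8 of 50, against 17%).

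Clutch 1 differed from clutches 3 and 4 in opposite directions in different genes. Its mean was 0.31 log2 units above the mean of clutches 3 and 4 for crygm2d10, 0.88 above for crygm5 and 0.32 above for cryba2b. It was -1.15 log2 units from that mean for crybb1, -0.85 for cryba1a and -0.68 for cryaa. The same held in both genotypes, where the ratio of the gamma M sum to the beta sum was 1.87 in the control and 1.86 in the mutant of clutch 1. In the other 6 libraries that ratio lay between 0.972, in the control of clutch 2, and 1.20. These are sums of normalised values and not of molecules.

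Members of a class followed each other to different degrees. As a description over the 8 libraries, the median pairwise Pearson correlation was 0.96 among gamma M genes, 0.75 among membrane genes and 0.16 among beta genes. The correlation with the mean of the gamma M class (leaving out the gene itself) was 0.98 for cryba2b and 0.94 for cryba2a, but -0.65 for crybb1 and -0.76 for cryba1a, a gene of low level. mipb was at -0.78 and mipa at 0.61. The points share clutch 1 and the control of clutch 2. The part of the uncertain read division among the similar crygm2d copies in the value of 0.96 was not tested. The beta value includes cryba1a and crybb1l3, both of low level.

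The spread between libraries also differed between the controls and the mutants for gamma M genes. The part of genotype in this was not tested. The median SD of a gamma M gene was 0.49 log2 units over the controls and 0.17 over the mutants, and the control SD was the larger in 23 of 25 genes, against 59.3% of all tested genes. For beta genes it was the larger in 6 of 12. The control of clutch 1 held the highest value of the 8 libraries in 24 of 25 gamma M genes, and that of clutch 2 the lowest in 23. Over all tested genes, the control of clutch 2 was the lowest for 12.2%, and both libraries of clutch 1 lay above the other 6 for 23%. A share for the control of clutch 1 alone was not counted. Gamma M genes moved together (median correlation 0.96), so these counts are not of independent genes.

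The 3 crybg members carry the beta-gamma fold but are not known as lens structural genes. crybg1a had 6.85, 6.52, 6.64 and 6.53 log2 CPM in the controls of clutches 1 to 4 and 6.83, 6.79, 6.68 and 6.58 log2 CPM in the mutants. crybg1b had 5.97, 6.40, 6.30 and 7.09 log2 CPM in the controls of clutches 1 to 4 and 6.11, 7.04, 6.83 and 6.54 log2 CPM in the mutants. For crybg3 the values were 5.15, 5.49, 5.29 and 5.11 log2 CPM in the controls of clutches 1 to 4 and 5.21, 5.27, 5.24 and 5.21 log2 CPM in the mutants. In each of the 3 the genotypes overlapped. Their mean differences of 0.081, 0.19 and -0.023 log2 units did not pass in either fit, and crybg1b was higher in the mutant in clutches 1 to 3 and lower in clutch 4.

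Other genes of the lens were taken from lists of transcription factors and of fibre cell genes. In whole larvae their values also hold any expression outside the lens. Of 18 measured transcription factors 0 passed in either fit (limma; unadjusted p under 0.05 in 0 genes either way), with a median difference of 0.00 log2 units. The one with the highest mean log2 CPM, tfap2a, differed by 0.028. In the control of clutch 2 the median gene of this list lay 0.029 log2 units above its mean in the other libraries. One member, hsf4, named after its values were seen, was lowest in that library, at 1.53 log2 CPM against 1.90 to 2.52 elsewhere. Of 14 measured fibre cell genes 0 passed in either fit (limma; unadjusted p under 0.05 in 0 genes without clutch and in 3 with it). Over all tested genes those shares were 3.41% and 13.5%. The fibre cell list had a median of 0.10, and vim, its member with the highest mean log2 CPM, differed by -0.11.

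Some fibre cell genes shared the profiles of the crystallins, and others did not. In the control of clutch 2 the median gene of the fibre cell list lay -0.087 log2 units from its mean in the other 7 libraries. tdrd7b, tmod1 and gja3 had their highest value in that library. The genes named in this paragraph were chosen after their values were seen. bfsp2, which encodes the beaded filament protein phakinin, had 6.15, 4.65, 5.74 and 5.47 log2 CPM in the controls of clutches 1 to 4 and 5.87, 5.66, 5.79 and 5.79 log2 CPM in the mutants. lgsn, which encodes lengsin, had 5.64, 4.07, 5.32 and 5.12 log2 CPM in the controls of clutches 1 to 4 and 5.51, 5.37, 5.52 and 5.62 log2 CPM in the mutants. In both, the control of clutch 2 was the lowest library, as it was for dnase1l1l, at 1.56 log2 CPM against 2.06 to 3.29 in the other 7. bfsp1, the partner of bfsp2 in the beaded filament, had 5.12, 5.24, 5.78 and 5.47 log2 CPM in the controls of clutches 1 to 4 and 5.12, 5.95, 5.84 and 5.92 log2 CPM in the mutants, with both libraries of clutch 1 lowest as for crybb1. Unlike in crybb1, its control of clutch 2 came next, 0.70 log2 units under its clutch mate.

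Genes of the other eye tissues and of the skin were listed to show what else varied with the lens. In the control of clutch 2 the median gene of the rod list lay 0.35 log2 units above its mean in the other 7 libraries and that of the cone list 0.28 above, while the gamma M genes were low there. Those 7 include both libraries of clutch 1, where rho had 9.95 (control) and 9.88 (mutant) log2 CPM. In the control of clutch 2 rho had 11.66, against 11.33 to 11.57 in the remaining libraries. Among clutches, 12 of 16 rod and 18 of 20 cone genes differed (limma F-test, adjusted p under 0.05), against 38.6% of all tested genes. The summed rod list was 4034 CPM in that library, the highest of the controls, which ranged from 1556 (mutants 1486 to 3490). This sum rests mostly on rho, at 11.66 log2 CPM in that library against 8.10 for gnb1a, the next highest of the list. The cone list was 8053 CPM there, within a control range of 6246 to 8130 (mutants 5272 to 7364). The skin list had its lowest control sum there, 18178 CPM in a range up to 23629 (mutants 18005 to 24178), and the lens fibre list its lowest too, 370.4 CPM in a range up to 488 (mutants 447 to 477). The pigment cell list had its highest control sum there, 473 CPM against a lowest of 417 (mutants 292 to 404). Their part in the lens values was not tested. Between genotypes, 2 of 16 rod genes, 4 of 20 cone genes and 3 of 13 pigment cell genes fell with clutch as a block, against 1.39% of all tested genes, and none did without it (limma). An unadjusted p under 0.05 was reached by 5, 15 and 9 of them with clutch in the model, against 13.5% of all tested genes, and by 1, 1 and 6 without it, against 3.41%. The transducin gene gngt1 fell by 0.43 log2 units (SE 0.06), the cone phosphodiesterase gene pde6ha by 0.56 (SE 0.08) and the isomerohydrolase gene rpe65a of the retinal pigment epithelium by 0.54 (SE 0.10), with blocked limma adjusted p of 0.000961, 0.00243 and 0.018. Of the rest, sagb, arr3b and guca1c (arrestins and a cyclase activator of photoreceptors) fell by 0.36, 0.36 and 0.43, and tyrp1b and dct, of melanin synthesis, by 0.40 and 0.55. The cone list gene gngt2a fell by 0.49 (blocked limma adjusted p = 0.0351) and lies on the chromosome of ccdc103. The list medians were -0.14, -0.20 and -0.32 log2 units.

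Of 18 inner retina and Mueller glia genes 0 passed in either fit (limma; unadjusted p under 0.05 in 3 genes without clutch and in 4 with it), with a median of -0.065. The member with the highest mean log2 CPM, glula, differed by -0.057. Of 14 cornea and epidermis genes, the keratin gene krt92 fell with the block (by 0.27 log2 units, limma adjusted p = 0.0172) and none without it (limma; unadjusted p under 0.05 in 2 genes), with a median of 0.016. Of 9 small heat shock genes, the family to which alpha crystallin belongs, hspb9 and hspb11 fell with the block, by 0.92 and 0.63 log2 units (limma adjusted p = 6.39e-05 and 0.000314), and none without it (limma; unadjusted p under 0.05 in 2 genes). hspb9 lies on the chromosome of ccdc103. The median of the small heat shock list was 0.0086. Over all tested genes, 2.34% were called with the block, and 1.39% counting falls alone. An unadjusted p under 0.05 was reached by 3.41% of all tested genes without clutch and by 13.5% with it.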

How the data were processed

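Total RNA of pooled whole larvae was sequenced on a DNBSEQ instrument and reads were filtered with SOAPnuke 1.5.2, per the labels' protocols. Per the submitters' processing notes the build was GRCz11; limma, RSEM, Bowtie2 and HISAT2 2.0.4 are listed there with no order. The authors deposited normalized values per library, taken here as log2 CPM because values fall below 0 and the back-transformed library totals are nearly equal; that unit is an inference. Library totals, maxima and sorted values agree so closely that quantile normalisation is likely, and levels are relative. The p-values of the second table are the authors' deposited ones; its statistic and log odds score, deposited by the authors, were not used. Depth and the precision it gives are unknown.

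Genes with at least 4 of 8 libraries at 0 log2 CPM or more were tested with limma 3.58.1 in R 4.3.3 (trend, robust), by genotype, all genes adjusted together. Clutch numbers pair the libraries, as the labels state. Deviations of clutch mates from the group means correlated by 0.72, 0.50, 0.50 and 0.30 in clutches 1 to 4. The largest correlation of each control with a mutant of another clutch was -0.095, 0.048, 0.12 and 0.20, so the margin was narrowest in clutch 4. The fit without clutch is the main one. Clutches were compared by an F-test with genotype as covariate. The procedure was tested on simulated data with independent noise, in which genotype and clutch effects were placed in different genes. Genes with both effects were not simulated.

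The members and lists were chosen with earlier results of these data known. Named in full were, per class, the 3 genes of highest mean, the largest and smallest difference and called genes; per list, up to 3 called genes or the most abundant; cryba1l2, crygmx and the genes stated in the text were added after their values were seen. RefSeq names and gene order came from GRCz12tu, which differs from the build of the files, so no positions are given. Alternatives were a clutch block, other filters, median-ratio rescaling, plain moderation, and leaving out each library and each clutch.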

Additional observations from a re-analysis of the deposited data

Results flagged for a closer look

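In 4 of 48 groups of 4 libraries checked, 1 library lay far from the other 3, where chance gives about 1 in 20 for independent groups. These groups are not independent, since the beta sum includes cryba1l1 and crybb1. The count can therefore not be weighed against that rate. The mutant of clutch 1 was the low library for cryba1l1 (8.98 log2 CPM), for crybb1 (8.34 log2 CPM) and for the summed level of the beta class (11.49 on the log2 scale). In crybb1 the control of the same clutch was low as well. The mutant of clutch 2 was the low library for the summed level of the lens membrane genes (8.24 on the log2 scale), within a narrow range of 302 to 311 CPM over the mutants.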

How the results depend on the processing

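With clutch as a replicate block, 472 genes were called in place of 15, and 1 lens gene in place of 0. The blocked fit without trend and robust moderation called 50 genes and 0 lens genes. A filter on a mean of 5 CPM left 7 calls. In the comparison of clutches, plain moderation called 2638 genes and 3 lens genes in place of 7788 and 17. The cause of each shift was not tested.

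Leaving out single libraries or clutches gave 0 to 447 calls over all genes (25, 1, 1 and 0 without clutches 1 to 4, and 419, 235, 447 and 178 with the block), 0 to 3 over the lens genes, and 1980 to 7717 and 2 to 37 in the comparison of clutches. The 3 lens calls came with the block and without clutch 1, and were grifin lower (adjusted p = 0.0365) and cryba4 and crybb1l1 higher (0.41 and 0.27 log2 units, adjusted p = 0.0129 and 0.0337). Without clutch 4 the 1 blocked call was crybg1b, higher (adjusted p = 0.0409). Without clutch 2 the clutch comparison called 33 lens genes, without its mutant 37, without its control 31, and without clutch 1 it called 2.

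Mean differences that changed sign ranged, in log2 units, from -0.046 to 0.31 for cryaa, from -0.16 to 0.41 for crybb1, from -0.57 to 0.13 for crybb1l3, from -0.073 to 0.052 for crybg3, from -0.020 to 0.27 for crygm2d10, from -0.046 to 0.30 for crygm2d21, from -0.036 to 0.31 for crygm2d4, from -0.17 to 0.077 for lim2.4 and from -0.069 to 0.12 for tfap2a. With the block and without clutch 2 they were 0.039 for crybg3, -0.00078 for crygm2d10 and -0.0029 for crygm2d21, and without clutch 3 they were 0.032 for crybb1l3 and -0.018 for tfap2a. With libraries or clutches left out, the difference in summed level changed sign for gamma M (0.13 log2 units in all libraries, range -0.065 to 0.29) and alpha (0.11, range -0.046 to 0.31). It kept its sign for beta (0.047 to 0.27), other gamma (0.012 to 0.31) and lens membrane genes (-0.15 to -0.073). The mean difference of grifin stayed between -0.58 and -0.36.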
